A study of Mus musculus with 8 samples.

Results

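Foxp3 encodes the forkhead transcription factor that defines regulatory T cells (Treg), the CD4 T cells that restrain immune responses. The gene lies on mouse chromosome X from 7579676 to 7595243 (mm10, RefSeq) and is read in the direction of rising coordinates. It was chosen by name, as 1 of 21883 protein-coding genes, and was described over its span with 5 kb and with 50 kb on both sides. Peaks that touched these spans by 1 bp or more were taken as its peaks. The libraries were H3K9me2 CUT&RUN of Treg sorted from tumours of JMJD1CTregcKO mice (by that name a conditional knockout, in Treg, of Jmjd1c, the gene of an H3K9 demethylase, called cKO below, 3 libraries) and of JMJD1CWT mice (WT, 3 libraries), and ATAC-seq of Treg from tumour (1 library) and from spleen (1 library) of JMJD1CWT mice. All mice were C57BL/6 and 8 to 12 weeks old. The labels name no tumour model, no sex and no driver of the recombinase. A Treg-specific recombinase is often inserted into Foxp3 itself, which the labels neither state nor deny for these mice.

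Transcription of Foxp3 is governed by its promoter and by conserved non-coding sequences (CNS) that act as enhancers. CNS0, upstream within the neighbouring gene, and CNS3, in an intron, act early in Treg development. CNS1 answers to TGF-beta signals in peripheral Treg induction. CNS2, the Treg-specific demethylated region, keeps Foxp3 on through cell division. Flicr, a long non-coding RNA gene that starts upstream and overlaps the start of Foxp3, restrains Foxp3 in mouse Treg. Dimethylated lysine 9 of histone H3 (H3K9me2) marks silent chromatin, and ATAC-seq tags open DNA. The promoter was taken as -1.0 to 0.2 kb from the first RefSeq start. CNS positions are approximate and come from the literature, not from these files: -8.5 to -7.5 kb for CNS0, 2.0 to 2.7 kb for CNS1, 4.2 to 4.8 kb for CNS2 and 6.9 to 7.1 kb for CNS3.

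The deposited values were peak lists called in each library alone, so a site without a peak is one that passed no caller threshold at that depth. Each peak carries a Normalized Tag Count, the tags in the peak scaled to 10000000 tags for the library. Where 3 values are given for a genotype, they are those of replicates 1, 2 and 3 in this order. Depth was 24774509 to 30313851 tags per H3K9me2 library, 11293674 tags for tumour ATAC and 11068821 for spleen ATAC. Peaks at genes that mark Treg checked the label of the ATAC libraries. Of 7 Treg markers, 6 had a tumour peak and 5 a spleen peak within 5 kb, with Ctla4 at 0 in both. These 7 include Foxp3 itself, whose peaks are no separate check. Of 6 T cell markers, 6 had one in tumour and 5 in spleen. Tumour peaks lay at 2 of 6 markers of CD8 T and NK cells, 3 of 5 of B cells, 2 of 6 of myeloid cells, 2 of 5 of melanocyte and epithelial cells and 2 of 5 of stromal and endothelial cells. Spleen peaks lay at 0, 2, 0, 1 and 3 of the same lists. Cd8a, Cd8b1, Ms4a1, Lyz2 and Csf1r had no peak in either library. Of the same lists, Nkg7, Gzma, Cd79a, Pax5, Blk, Itgam and Cd14 had a tumour peak, and Cd79a and Pax5 also a spleen peak. Over all genes, 59.9% had a tumour peak and 47.1% a spleen peak. H3K9me2 covered 2.14, 3.26 and 1.78% of the Jmjd1c span with 5 kb in the cKO libraries, against 1.46, 2.16 and 1.47% in the WT libraries, which cannot show whether the gene was deleted.

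Open chromatin at Foxp3 was compared between tumour and spleen Treg. Within 5 kb of the gene, each library had 2 peaks, at the same places: over CNS2 and upstream of the start, centred at -4.87 kb in tumour and -4.91 kb in spleen. The CNS2 peak spanned 7583919 to 7584241 in tumour Treg, centred 4.40 kb after the start, and 7583761 to 7584629 in spleen Treg. It held a Normalized Tag Count of 45.2 in tumour (95% exact Poisson interval 33.6 to 59.4) and 32.5 in spleen (22.8 to 45.03). These intervals cover counting error only. They overlapped, which is no test of a difference. The upstream peak spanned 7574643 to 7574965 in tumour and 7574335 to 7575203 in spleen, inside Flicr. Its centre lay at -0.523 kb (tumour) and -0.488 kb (spleen) from the start of Ppp1r3f, which encodes a glycogen-targeting subunit of protein phosphatase 1. It held 65.1 in tumour (51.0 to 81.8) and 44.7 in spleen (33.2 to 59.0), more than CNS2 in each library. In the tumour list the upstream peak ranked 4714 and CNS2 7640 of 27625, and in the spleen list they ranked 2971 and 4916 of 13078.

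The tumour over spleen ratio was 1.39 at CNS2 and 1.46 at the upstream peak. Over all 11144 tumour peaks that touch a spleen peak its median was 1.55 and 77.8% were higher in tumour, so both Foxp3 ratios lay near the middle of that distribution, with 57.7% of such peaks at or above CNS2. Summed over the span with 5 kb, tumour had 110.3 and spleen 77.2, a ratio of 1.43, against a median of 1.94 among the 10026 genes with a peak in both libraries, of which 89.9% were higher in tumour. Divided by the median ratio of shared peaks, the Foxp3 ratio was 0.923. With 1 library per tissue there is no test, and tags were counted in windows 323 bp wide in tumour but 869 bp wide in spleen. The Normalized Tag Count per kb of peak therefore differed more (139.9 in tumour and 37.4 in spleen at CNS2). Summed Normalized Tag Counts near Treg markers, Foxp3 included, were 1112.6 in tumour and 354.0 in spleen. Near T cell markers they were 407.2 in tumour and 180.3 in spleen. Summed Normalized Tag Counts near markers of other cells were also higher in tumour, and their part in the result was not tested. For CD8 T and NK cells they were 62.9 in tumour and 0 in spleen, for B cells 148.7 in tumour and 57.4 in spleen, and for myeloid cells 57.1 in tumour and 0 in spleen. For melanocyte and epithelial cells they were 250.1 in tumour and 90.8 in spleen, and for stromal and endothelial cells 199.2 in tumour and 54.2 in spleen. In bulk Treg, more cells with an open site and a site more often open in each cell cannot be told apart.

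**Figure D1:**
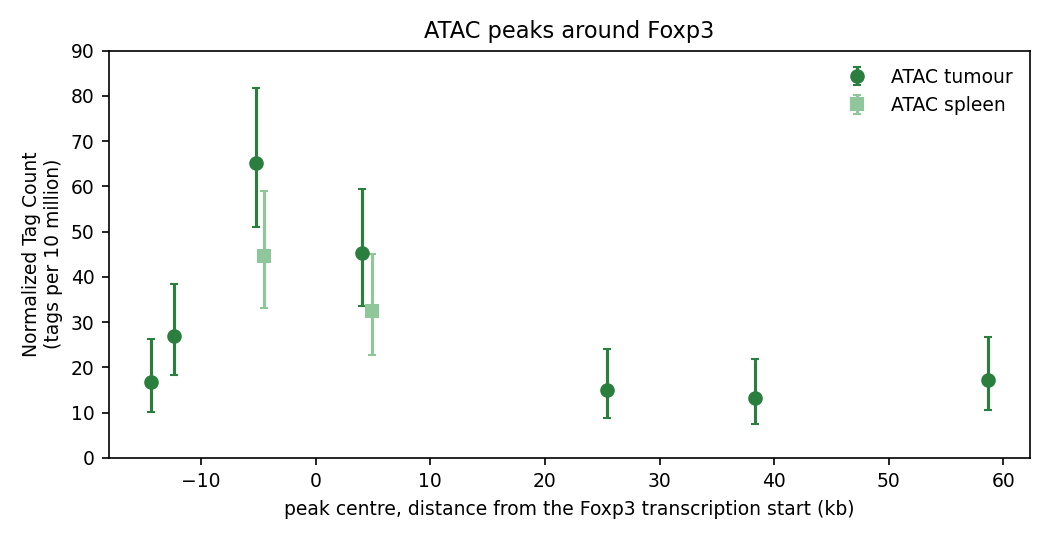
ATAC peaks within 50 kb of Foxp3: Normalized Tag Count (tags scaled to 10000000 per library, vertical axis) against the distance of the peak centre from the Foxp3 start in kb (tumour and spleen points are drawn slightly apart), with 95% Poisson intervals for counting error. The 2 highest peaks are present in tumour and spleen Treg, and the other 5 peaks, at 13.3 to 27.0, are listed in tumour only.

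In the span with 50 kb, tumour Treg had 7 peaks and spleen Treg 2. The 5 tumour peaks without a spleen peak were low, with 13.3 to 27.0. A pair lay in Ppp1r3f at -14.0 and -12.0 kb (16.8 and 27.0), one over the start of Ccdc22 (15.1), which encodes a part of an endosomal sorting complex, one in Cacna1f (13.3), which encodes a retinal calcium channel subunit, and one over the start of Syp (17.3), the synaptophysin gene. Each was above the lowest value listed in spleen, 10.4, although the spleen list needed 15 tags and the tumour list 10. Spleen windows were wider (869 against 323 bp), and shared peaks were higher in tumour by a median ratio of 1.55. The values therefore cannot show whether such sites would have been listed in spleen. Of all tumour peaks, 40.3% touched a spleen peak, against 2 of these 7. The summed ratio over this span was 2.59, and 1.78 with lists of equal length.

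Neither library had a peak at the promoter, CNS0, CNS1 or CNS3. RefSeq gives 2 starts for Foxp3, at 7579676 and 7580483. The nearest spleen peak edge was 4036 bp from the first start window and 3229 bp from the second. The 250 bases before each Foxp3 start are shown because no open peak was called over them, and those before the starts of Ppp1r3f and Ccdc22 because a peak touches the start window of each (spleen at Ppp1r3f, tumour at Ccdc22). They are from RefSeq (GRCm38.p6), 5′ to 3′ on the strand of the gene, with every CG and every TATAAA (on either strand) in capitals.
Foxp3, the first start (chrX:7579426-7579675, + strand): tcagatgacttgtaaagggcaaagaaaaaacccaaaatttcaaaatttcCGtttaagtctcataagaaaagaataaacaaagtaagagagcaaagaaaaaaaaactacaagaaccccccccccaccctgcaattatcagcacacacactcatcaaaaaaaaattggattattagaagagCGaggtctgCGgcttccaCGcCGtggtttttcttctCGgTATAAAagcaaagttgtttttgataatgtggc
Foxp3, the second start (chrX:7580233-7580482, + strand): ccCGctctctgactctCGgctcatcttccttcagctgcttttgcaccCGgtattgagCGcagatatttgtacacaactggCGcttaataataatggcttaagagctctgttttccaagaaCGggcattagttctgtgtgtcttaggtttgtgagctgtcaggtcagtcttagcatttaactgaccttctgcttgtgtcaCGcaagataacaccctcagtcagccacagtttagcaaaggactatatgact
Ppp1r3f (chrX:7574282-7574531, - strand): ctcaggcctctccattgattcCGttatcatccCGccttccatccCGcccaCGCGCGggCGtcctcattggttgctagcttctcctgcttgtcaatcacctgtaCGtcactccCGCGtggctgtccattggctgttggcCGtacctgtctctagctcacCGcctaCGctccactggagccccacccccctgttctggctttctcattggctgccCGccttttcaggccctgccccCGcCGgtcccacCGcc
Ccdc22 (chrX:7605421-7605670, - strand): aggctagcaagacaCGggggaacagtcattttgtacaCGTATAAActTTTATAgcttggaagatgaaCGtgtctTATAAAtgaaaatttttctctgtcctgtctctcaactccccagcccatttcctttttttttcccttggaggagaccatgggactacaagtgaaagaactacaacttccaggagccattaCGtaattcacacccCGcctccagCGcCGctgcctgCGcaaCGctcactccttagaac
The first Foxp3 start holds 6 CG and a TATAAA at -32, the second 7 CG and no TATAAA. Ppp1r3f holds 17 CG and no TATAAA, Ccdc22 9 CG and TATAAA on its own strand at -211 and -176, beside one on the other strand, read there as TTTATA. A tumour peak also touches the start window of Syp, whose 250 bases are not shown and hold 11 CG and no TATAAA. The median over 21262 start windows of protein-coding genes was 10 CG, and 11.6% held a TATAAA on either strand in these 250 bases. Of the 9445 windows with 7 CG or fewer, 9.40% were touched by a tumour peak and 7.02% by a spleen peak. Of the other windows it was 62.5% and 52.0%. A start without a called peak was therefore usual among windows as poor in CG as those of Foxp3. These windows include genes that may be silent in Treg. Transcription was not measured, so the share among transcribed genes is not known. A match is a description of letters and names no bound factor.

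**Figure D2:**
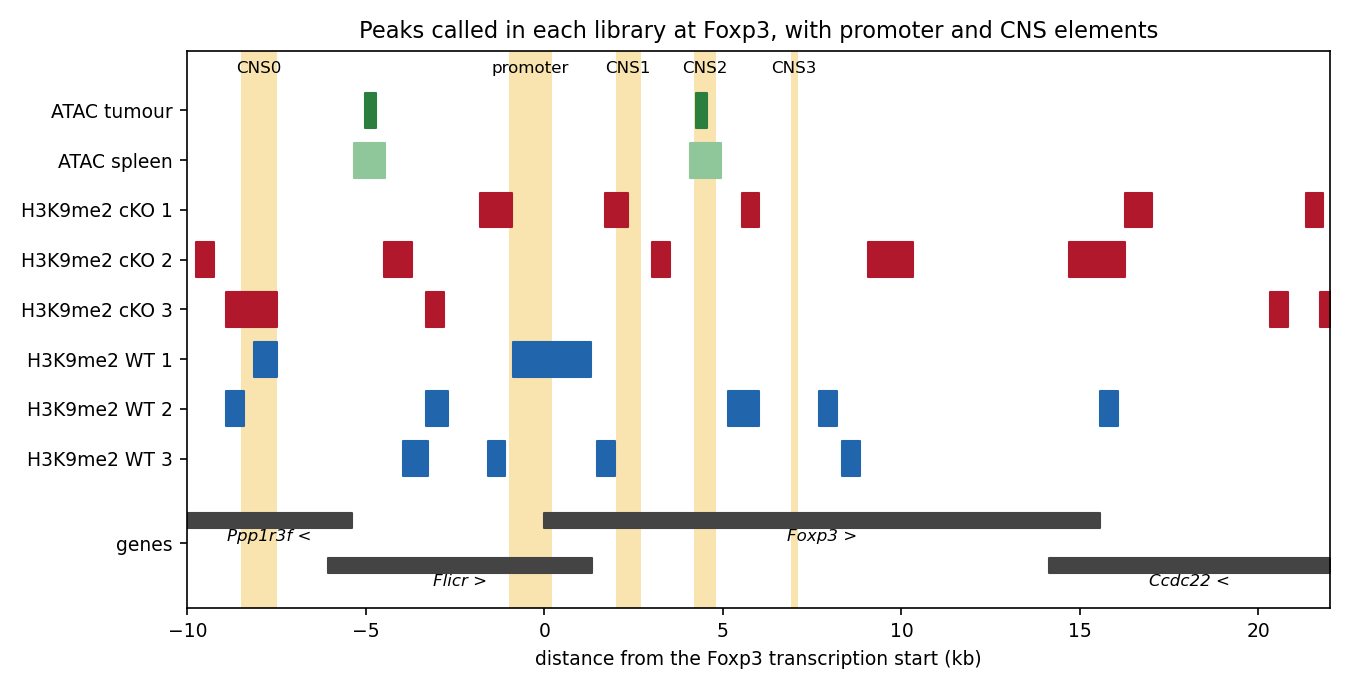
Peaks of each library (bars, rows) from -10 to 22 kb around the Foxp3 start, with the promoter and CNS elements shaded and genes below (arrows give the strand). ATAC peaks of tumour and spleen stand over CNS2 and upstream of the start, and no H3K9me2 peak of the 6 libraries overlies CNS2 or CNS3.

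H3K9me2 peaks at Foxp3 were short and scattered, and no place was marked in all libraries. Within 5 kb there were 4, 4 and 2 peaks in the cKO libraries, and 1, 4 and 4 in the WT libraries. These 19 peaks held Normalized Tag Counts of 2.03 to 7.59 and spanned 501 to 2173 bp. Their median per library was 5.35, 5.935 and 3.39 in cKO and 6.33, 2.625 and 2.705 in WT, so the groups overlapped. Over the whole lists the median was 4.64, 3.63 and 3.96 in cKO and 4.11, 3.5 and 3.38 in WT. In its own list each ranked between the top 19.2 and the top 73.7%.

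CNS2 held no H3K9me2 peak in any of the 6 libraries. From the tumour CNS2 peak to the nearest H3K9me2 peak there were 959, 723 and 7052 bp in the cKO libraries, and 2943, 570 and 2263 bp in the WT libraries. None of the 7 tumour peaks in the span with 50 kb was touched. Of all tumour ATAC peaks, 65.1% were touched in 0 of 6 libraries, so a free CNS2 was the usual state of an open site. The spleen peak upstream was touched in cKO replicate 2, over 3.34% of its length. CNS3 also held no peak.

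At the promoter the libraries differed. In WT replicate 1 a peak of 2173 bp (7578804 to 7580976, Normalized Tag Count 6.33) lay over both Foxp3 starts and 89.3% of the promoter. It was the longest H3K9me2 peak within 5 kb. In cKO replicate 1 a peak from 7577864 to 7578763 (5.65) reached 7.33% of the promoter, and in WT replicate 3 a peak of 501 bp (2.37) ended 94 bp before it. The other 3 libraries had none, their nearest peaks lying 2697 and 1809 bp away in cKO replicates 2 and 3 and 1691 bp away in WT replicate 2. Over all start windows, 3.27 to 6.00% were touched in a library, and 16.4% were touched in 1 of 6 libraries, as were those of Foxp3.

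CNS0 was covered by 0, 0 and 100% in the cKO libraries, but by 62.9, 7.19 and 0% in the WT libraries. CNS1 was covered over 48.9% in cKO replicate 1 and free in the other 5 libraries, with a WT replicate 3 peak ending 20 bp before it. Neither element separated the groups. In the gene body past CNS3, peaks lay at 9.69 and 15.5 kb in cKO replicate 2, at 7.95 kb in WT replicate 2 and at 8.60 kb in WT replicate 3. In cKO replicate 3 the Foxp3 span itself had no peak.

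Positions marked in more than 1 library were few. Of the bases covered in any library over the span with 50 kb, 79.7% were covered in 1 library, 18.1% in 2 and 2.22% in 3, and none in 4 or more. Over the autosomes and X it was 77.5, 16.8 and 4.31%. Within Foxp3, the 2 shared stretches lay from 1.70 to 1.98 kb (cKO replicate 1 and WT replicate 3) and from 5.52 to 6.00 kb (cKO replicate 1 and WT replicate 2), each with 1 library of either genotype.

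**Figure D3:**
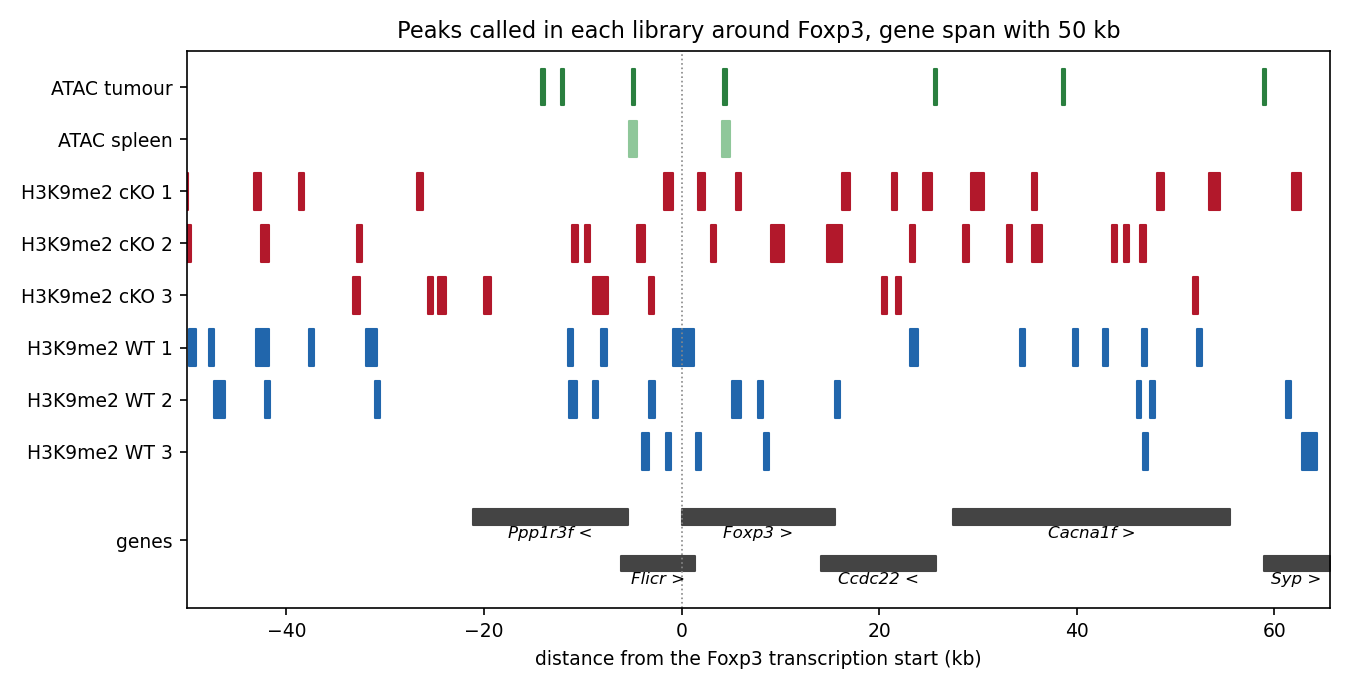
Peaks of each library (bars, rows) over the Foxp3 span with 50 kb on both sides, against the distance from the Foxp3 start in kb (dotted line), with genes below. Tumour ATAC has 7 peaks and spleen ATAC 2, and H3K9me2 peaks number 15, 16 and 9 in cKO and 14, 12 and 6 in WT libraries.

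Whether loss of Jmjd1c changed H3K9me2 at Foxp3 was tested on the percent of the span covered by peaks. With 5 kb on both sides, coverage was 10.998, 16.2 and 2.90% in the cKO libraries, and 8.499, 9.80 and 8.62% in the WT libraries. The cKO libraries held the highest and the lowest value and enclosed all 3 WT libraries. The means were 10.02 ± 6.68% in cKO and 8.97 ± 0.718% in WT (SD, n = 3 each), a difference of 1.05 percentage points (SE 3.57, limma p = 0.777, adjusted p = 0.934, and exact two-sided permutation p = 0.7, where 0.1 is the smallest that 3 against 3 can give). Summed Normalized Tag Counts were 19.4, 22.4 and 6.78 in cKO against 6.33, 12.4 and 10.65 in WT libraries, again overlapping (exact permutation p = 0.3). In the limma fit 0% of 19014 genes passed an adjusted p of 0.05, and 8.36% had an unadjusted p under 0.05, while the median difference of all genes was 1.26 percentage points. The direction turned without cKO replicate 2 (-2.02), with each library divided by its genome-wide coverage (-0.210 times that coverage) and with lists of equal length (-0.780). Without cKO replicate 3 the difference was 4.605, without cKO replicate 1 it was 0.557, and with the stronger 50% of peaks coverage was 8.19% in cKO and 1.78% in WT (adjusted p = 0.63 by limma).

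With 50 kb on both sides, coverage was 9.25, 9.70 and 5.28% in the cKO libraries, and 9.26, 6.46 and 3.58% in the WT libraries, and the groups overlapped. The means were 8.08 ± 2.43% in cKO and 6.43 ± 2.84% in WT (difference 1.64 points, SE 1.70, limma p = 0.338, adjusted p = 0.611, exact permutation p = 0.6). Of 20834 genes in that fit, 0% passed. An unadjusted p under 0.05 was reached by 15.9% of them, and the groups did not overlap at 21.3% with cKO higher and at 0.878% with cKO lower. Peaks numbered 13.3 ± 3.79 in cKO and 10.7 ± 4.16 in WT (p = 0.5 by the exact permutation test, n = 3 each). The difference of 2.67 peaks was 0.333 without WT replicate 3 and 1.33 without cKO replicate 2, but 4.33 without WT replicate 1 and 4.83 without cKO replicate 3. Summed Normalized Tag Counts were 91.2, 80.8 and 36.8 in cKO and 51.8, 42.2 and 18.4 in the WT libraries, (exact permutation p = 0.3), over 10690, 11212 and 6100 covered bp in cKO and 10702, 7470 and 4137 in WT. In these sums cKO replicates 1 and 2 lay above every WT library and cKO replicate 3 below WT replicates 1 and 2. The sums take each touching peak whole, while covered bp count only bases inside the span. The highest peaks of cKO replicates 1 and 2 (15.9 and 15.7) lay mostly upstream of the span, from -52.0 to -49.99 kb and from -51.6 to -49.6 kb. The difference in sums without these peaks was not computed. The difference of 32.1 was 48.5 without cKO replicate 3 (exact permutation p = 0.1, the smallest possible) and 21.3 without cKO replicate 1. The difference in coverage was 0.215 points without WT replicate 3, 0.830 and 1.06 without cKO replicates 2 and 1, 3.04 without cKO replicate 3 and 3.05 without WT replicate 1. The stronger 50% of peaks gave 6.07% in cKO and 1.74% in WT (limma unadjusted p = 0.0115, adjusted p = 0.318), where 1209 of 9726 genes tested had an unadjusted p under 0.05.

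The Normalized Tag Count per kb of peak over the same span was 7.19, 6.32 and 6.02 in cKO and 4.84, 5.65 and 4.45 in the WT libraries. Each cKO library thus lay above each WT library. The means were 6.51 ± 0.604 in cKO and 4.98 ± 0.610 in WT (p = 0.1 by exact permutation, the smallest possible, n = 3 each). This value was singled out after it was seen. Among 18502 genes with a peak in each library, 32.5% also had all cKO values above all WT values, and 1.1% had them below. The median peak of a library held a Normalized Tag Count per kb of 6.85, 5.16 and 5.67 in cKO and 5.93, 5.25 and 5.02 in WT. Divided by this median, the values of the span were 1.05, 1.22 and 1.06 in cKO and 0.817, 1.08 and 0.886 in WT. On that scale the groups overlapped with 50 kb. With 5 kb the undivided values were 6.89, 5.43 and 6.77 in cKO and 2.91, 4.96 and 4.83 in WT (exact permutation p = 0.1, the smallest possible). Divided by the median they were 1.01, 1.05 and 1.19 in cKO and 0.491, 0.945 and 0.962 in WT. With 5 kb the groups did not overlap on either scale, but WT replicate 1 had 1 peak there. The share of all genes without overlap was not computed for 5 kb. Labels do not say that replicates came from separate animals, so these p-values measure the spread between libraries, which may be technical, and the header names of cKO replicates 1 and 3 share a knockout number, with no word on whether they share an animal. No name prefix in the headers is used in both genotypes, so a batch that the prefixes may mark cannot be told apart from genotype.

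**Figure D4:**
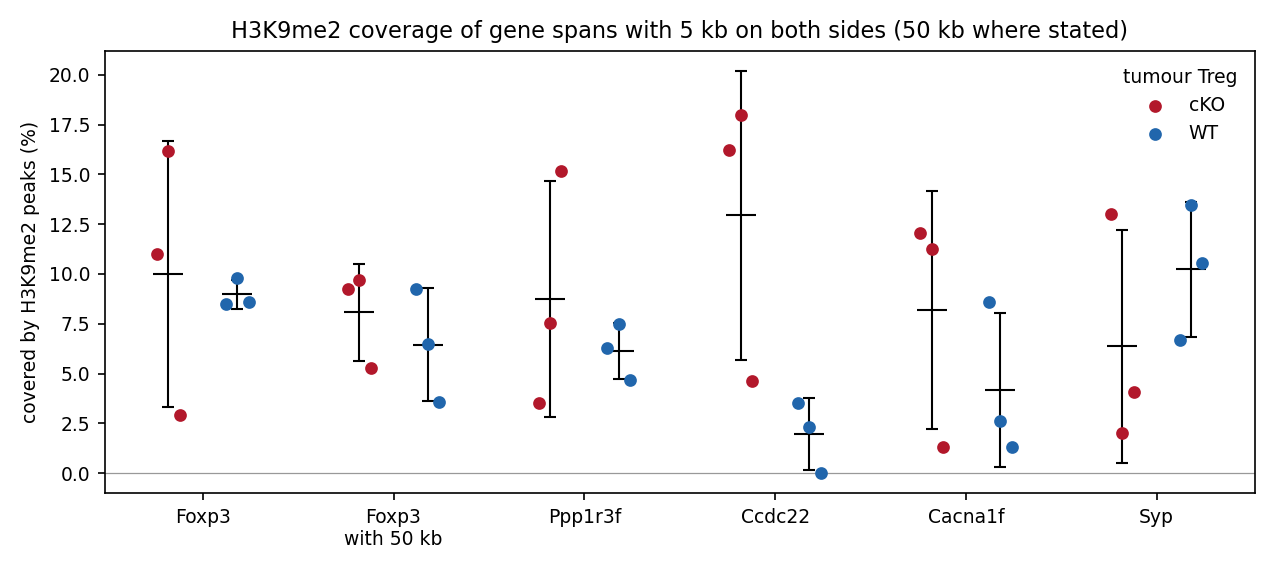
Percent of each gene span covered by H3K9me2 peaks in cKO (left of each pair) and WT libraries (points), with mean and SD (n = 3 each), for spans with 5 kb on both sides and for Foxp3 also with 50 kb. With 5 kb, the cKO libraries at Foxp3 enclose the WT libraries, and at Ccdc22 each cKO library lies above each WT library.

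Of the 4 protein-coding neighbours in the span, none passed the limma test and 1, Ccdc22, had an unadjusted p under 0.05, as had 8.36% of all genes. Ccdc22, which overlaps the 3′ end of Foxp3, had 16.2, 17.99 and 4.64% in cKO and 3.54, 2.32 and 0% in the WT libraries (difference 10.997 points, SE 3.59, adjusted p = 0.542 by limma). Its groups did not overlap, as at 13% of all genes with cKO higher and 1.34% with cKO lower. Cacna1f had 8.21 ± 5.98% in cKO and 4.18 ± 3.87% in WT, with an adjusted p = 0.669 by limma, Ppp1r3f 8.74 ± 5.94% in cKO and 6.14 ± 1.41% in WT (0.778), and Syp 6.36 ± 5.83% in cKO and 10.2 ± 3.397% in WT (0.684). Their spans with 5 kb share peaks with one another and with Foxp3. Flicr, over its own span, had 12.1, 10.9 and 6.75% in cKO and 29.3, 8.60 and 16.2% in WT, overlapping between the groups, and the WT replicate 1 value includes the long promoter peak.

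Foxp3 was more covered than most genes in these Treg. Its mean over the 6 libraries was 9.49%, against a median of 3.01% over all genes, and 97.0% of genes lay below it. The median of the 966 genes on X was higher, 5.98%, and 88.3% of them lay below Foxp3. In single libraries the share of all genes below it was 92.4, 98.2 and 51.4% in the cKO libraries, and 92.5, 93.8 and 93.8% in the WT libraries, so cKO replicate 3 stood apart. Among X genes alone that share was 78.9, 94.7 and 40.1% in cKO but 77.2, 81.1 and 81.1% in WT libraries. With 50 kb on both sides, 94.0% of all genes and 76.3% of X genes lay below the mean of Foxp3. In single libraries the share of X genes below it was then 76.2, 89.8 and 57.9% in the cKO libraries, against 89.1, 55.6 and 30.8% in the WT libraries, so that Foxp3 lay below most X genes in WT replicate 3. In ATAC, 16.9% of genes had a summed tumour value and 9.06% a summed spleen value at or above that of Foxp3.

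**Figure D5:**
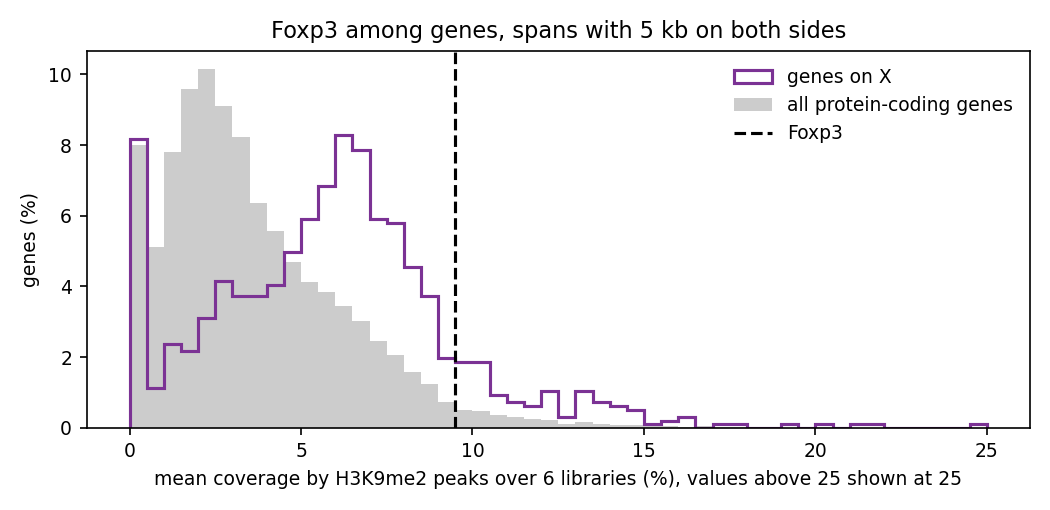
Share of genes (percent, vertical axis) by mean H3K9me2 coverage over 6 libraries (percent of the span with 5 kb on both sides), for all protein-coding genes (grey) and genes on X (line). The dashed line marks Foxp3 at 9.49%, above 97.0% of all genes and 88.3% of X genes.

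The genes with the H3K9me2 pattern most like Foxp3, by Euclidean distance over the 6 covered percents, were Gm9595 (distance 3.84 points), the interferon-inducible gene Ifi214 (4.26), the zinc-finger gene Zfp980 (4.38), Trim55 (4.62), which encodes a muscle ubiquitin ligase, and Tmem45b (4.81). Each had its lowest value in cKO replicate 3 and its highest in cKO replicate 2, as Foxp3 did. This follows largely from choosing them by these same 6 values. Of these 5, only Trim55 had an ATAC peak within 5 kb. In ATAC, by distance of log2(summed Normalized Tag Count + 1) over tumour and spleen, the nearest genes included the fatty acid binding protein gene Fabp5 (112.0 in tumour and 78.1 in spleen), Tm9sf2 (111.2 in tumour and 78.6 in spleen), the respiratory complex I gene Ndufs7 (108.5 in tumour and 78.2 in spleen) and the ribosomal RNA processing gene Utp18 (111.6 in tumour and 75.4 in spleen). The mean H3K9me2 coverage of these 4 was lower than that of Foxp3 in each genotype, from 2.01% (Tm9sf2) to 6.39% (Fabp5) in cKO and from 0.914% (Utp18) to 1.78% (Ndufs7) in WT.

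Genes that act on Foxp3 or belong to the Treg signature mostly had an ATAC peak, and their median H3K9me2 coverage lay below that of all genes, 3.01%. Over all genes, 59.9% had a tumour and 47.1% a spleen ATAC peak within 5 kb. Among 28 regulators of Foxp3 transcription, 28 had a tumour and 25 a spleen ATAC peak within 5 kb, and their median H3K9me2 coverage over 6 libraries was 2.44%. None of the 27 tested passed in limma in either direction, 1 had an unadjusted p under 0.05 (8.36% over all genes), and 24 had a positive cKO minus WT difference, with a median of 1.21 points, against 72.0% positive and a median of 1.26 over all genes. The 3 with the smallest p were Atf1, a CREB family factor, with 3.94 ± 1.77% in cKO and 0.385 ± 0.667% in WT (adjusted p = 0.568 by limma), Ikzf1, which encodes Ikaros, with 4.01 ± 0.594% in cKO and 1.43 ± 0.705% in WT (0.568), and Mbd2, which binds methylated DNA, with 5.47 ± 1.03% in cKO and 2.56 ± 0.996% in WT (0.568). Among 24 signature genes, 22 had a tumour and 19 a spleen peak, the median coverage was 2.38%, and none of 21 tested passed in limma, with 2 at an unadjusted p under 0.05, near the 8.36% over all genes, 19 positive and a median of 1.83 points. They were led by Nt5e, Rtkn2 and Entpd1, with 4.59 ± 0.503%, 7.18 ± 1.36% and 4.90 ± 1.06% in cKO and 0.613 ± 0.531%, 1.95 ± 1.21% and 1.998 ± 0.866% in WT (adjusted p by limma = 0.518, 0.518 and 0.568).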

How the data were processed

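H3K9me2 CUT&RUN and ATAC-seq were measured in Treg. Build mm10 and the tools HOMER, deepTools, SAMtools 1.11, Bowtie2 2.4.2, Trim Galore 0.6.6 and Picard stand in the submitters' processing notes. The sources used here do not say whether ATAC reads were moved to allow for transposase binding. HOMER called peaks in each library without an input, per the file headers. ATAC used factor style. H3K9me2 used histone style with a tag threshold of 5 and a local Poisson p of 0.05, and the deposited lists hold 24.4 to 43.9% of the peaks their headers count, so a further filter was applied. Each peak's tag signal was scaled by the authors to 10000000 tags. Per the file headers the deposited lists also give a score in tags, a fold over the local region, a p-value and, for ATAC, a focus ratio as a fraction. Scores were used only to rank peaks. Short stretches that stand out locally are selected, so covered length is not the amount of the mark.

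Peaks were merged per library and the percent of each span covered was computed for protein-coding genes of a RefSeq table (GRCm38.p6). Genes with a mean of 1% or more were fitted with limma 3.58.1 in R 4.3.3 (trend, group as the single term, Benjamini-Hochberg over all genes, threshold 0.05), checked on simulated data. Single values had exact two-sided permutation tests, and counting intervals were 95% exact Poisson on tags, which are multiples of 0.5. Named genes were Foxp3, its neighbours within 50 kb, the 5 nearest in H3K9me2 and in ATAC, and the 3 of each list with the smallest limma p. A gene that this rule names is not reported here. The gene and the lists were chosen with earlier results of these data known. Alternatives were the scale, the filter, peak lists of equal length, the stronger 50% of peaks, each replicate left out and a replicate block.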

Additional observations from a re-analysis of the deposited data

How the results depend on the processing

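The Foxp3 difference in H3K9me2 passed the adjusted threshold under no alternative run. With 5 kb it lay between -2.02 (without cKO replicate 2) and 4.605 points when 1 library was left out, and was -0.210 in units of genome-wide coverage and -0.780 with lists of equal length. The direction in the span with 50 kb was positive under each alternative run, between 0.215 and 3.05 points with 1 library left out. Genes passing with 5 kb numbered 0, but 1 on the arcsine square root scale and 12 with no filter. Leaving out 1 library gave differences of 0.333 to 4.83 in peak number and of 21.3 to 48.5 in summed Normalized Tag Count with 50 kb. With the stronger 50% of peaks these differences were 7.0 and 42.7 (exact permutation p = 0.2 for each). With lists of equal length they were 2.33 (exact permutation p = 0.6) and 29.1 (exact permutation p = 0.3). Genes passing with 50 kb numbered 0, but 4 with genome-wide scaling, 2 with no filter and 0 to 334 with 1 library left out (30, 15 and 334 without cKO replicates 1, 2 and 3). The causes were not tested. The ATAC ratio with 5 kb was 0.923 after division by the median ratio of shared peaks. With 50 kb it was 2.59, and 1.78 with lists of equal length, 1.78 with the stronger 50% of peaks and 1.67 after that division. Peaks in these lists carry few tags, which limits what a missing peak shows.

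Same-numbered cKO and WT libraries shared little (correlations of gene deviations 0.0757, 0.00506 and 0.0259). The other combinations gave -0.0538 to 0.0264. Such low values cannot show whether same-numbered libraries were handled together. With a replicate block the differences were 1.05 (limma adjusted p = 0.907) and 1.64 points (0.522), and 0 genes passed in either span. The peak number and summed Normalized Tag Count, which differed by 2.67 and 32.1, had an exact permutation p = 0.25, the smallest that 3 pairs allow.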

Other observations

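Beyond the 3′ end of Ppp1r3f, in sequence without a protein-coding gene, H3K9me2 peaks of 4 libraries met between -43.3 and -41.7 kb from the Foxp3 start, in cKO replicates 1 and 2 and WT replicates 1 and 2. A stretch of 382 bp there was covered in cKO replicate 2, WT replicate 1 and WT replicate 2. Within Cacna1f, 265 bp from 46.7 to 47.0 kb were covered in cKO replicate 2, WT replicate 1 and WT replicate 3. The H3K9me2 peaks with the highest Normalized Tag Counts in the neighbourhood, 15.9 in cKO replicate 1 and 15.7 in cKO replicate 2, lay at its upstream edge, centred at -51.0 and -50.6 kb, next to a peak of 4.79 in WT replicate 1 centred at -49.5 kb. These places were chosen after their values were seen, and no test was made.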
